A study of Danio rerio with 24 samples.

Results

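The genes described here are the constitutive subunits of the proteasome and the enzymes that attach ubiquitin to proteins or remove it, measured as mRNA in zebrafish liver. They were taken by symbol from the probe annotation of the array: every gene whose symbol begins with psma, psmb, psmc, psmd, psmf, ube2, uba, ubb, ubc, usp or uchl, together with pomp, and without the 4 immunoproteasome genes psmb8a, psmb9a, psmb12 and psmb13a. This gave 46 of the 5355 genes that a probe names by 1 symbol, on 52 probes, and each gene was followed by its probe of highest mean intensity. The 46 genes fell into 7 subunits of the core particle, 3 of the cap, the maturation factor pomp, and 35 genes of the ubiquitin system, which were 1 activating enzyme (E1), 13 conjugating enzymes (E2), 18 deubiquitinases and 3 others that share only the prefix (ubald1a, ubap1 and uspl1). These classes follow the symbols, and the activity of each product was not checked. The annotation gave no probe with a psmc, psmf, ubb or ubc symbol, so the ATPases of the cap and the ubiquitin genes themselves were not analysed here.

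The proteasome is a barrel of stacked rings, with alpha subunits at its ends and beta subunits, some of them proteases, inside, and a regulatory cap that recognises tagged proteins, unfolds them and feeds them in. The tag is ubiquitin, which an E1 activates, an E2 carries and a ligase attaches to the target, and which deubiquitinases take off again. In liver this system clears damaged and short-lived proteins, and the genes of its subunits are commonly raised together when unfolded or oxidised protein accumulates.

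Adult zebrafish aged from 6 months to 1 year were kept in water with a nominal 200 μg/L of mercuric chloride (HgCl2) or in clean water as control, and livers were taken after 8, 24, 48 and 96 h. There were 24 arrays in 8 groups (HgCl2 and control at each of the 4 times), 3 per group, and each array carried the pooled liver RNA of 4 fish. That RNA was labelled with Cy5 and hybridised beside a Cy3-labelled common reference, a pool of liver RNA from male and female wild-type fish. The dyes were never exchanged, no label gives the sex of the pooled fish, and although exposure was run on 3 groups of 4 fish, no source says how the pools of a group were housed, so p-values measure the spread between these pools.

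The level used throughout is the log2 ratio of liver over reference after background correction and loess normalization, so that 0 means equal signal in both. Levels of different probes are not comparable with each other. A gene was called changed where limma's moderated test, fitted over 16340 probes and all 24 arrays, gave a Benjamini-Hochberg adjusted p under 0.05, and errors are standard errors of the difference unless SD is stated. The median signal of an array in the liver channel was 316 to 789 for HgCl2 and 253 to 902 for control, 65.7% to 94.9% of spots stood above background there, and arrays of 1 group correlated at 0.29 to 0.71 over all probes. None of the 46 genes was saturated and 26 were above background on all 24 arrays in the liver channel. In the reference channel 9 genes were above background on fewer than 12 arrays, and the ratio of such a gene rests on a faint denominator.

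The core particle had higher medians in HgCl2 livers at the 3 later times, while few of its 7 genes passed singly in limma: 2 of 7 after 24 h, 0 of 7 after 48 h and 2 of 7 after 96 h. At an unadjusted p under 0.05 these counts were 6, 5 and 6, beside 4135, 3980 and 4592 of all 16340 probes. The median log2 ratio over its 7 genes was 0.41, 0.14 and 0.15 in the HgCl2 arrays at 8 h, against 0.45, 0.17 and 0.31 in the control arrays, which overlapped. At 24 h it was 0.40, 1.29 and 1.53 in HgCl2 arrays, against 0.08, 0.29 and 0.47 in control arrays, and the 1 exposed array inside the control range was replicate 1. At 48 h the values were 0.59, 0.63 and 0.61 in HgCl2 arrays, against 0.12, -0.08 and 0.08 in control arrays, and at 96 h they were 1.11, 0.60 and 0.66 in HgCl2 arrays, against 0.17, 0.13 and -0.02 in control arrays. At these last times every exposed array lay above every control.

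The 35 genes of the ubiquitin system moved far less as a group. Their median was 0.03, 0.20 and 0.24 in HgCl2 arrays at 24 h, against -0.13, -0.01 and 0.08 in control arrays. At 48 h it was 0.26, 0.08 and 0.05 in HgCl2 arrays, against -0.05, -0.11 and 0.03 in control arrays. At 96 h it was 0.14, 0.03 and 0.28 in HgCl2 arrays, against -0.07, -0.01 and 0.01 in control arrays. At 48 and 96 h every exposed array lay above every control here too. The median over the 3 cap genes was above all controls at 48 h. It was 1.08, 0.29 and 0.61 in HgCl2 arrays, against 0.12, 0.06 and 0.10 in control arrays. Singly, 2 of the 3 genes separated at that time and psmd5 overlapped. At 8, 24 and 96 h the cap medians of exposed and control arrays overlapped. They were -0.13, 0.78 and 0.12 in HgCl2 arrays at 24 h, against 0.47, -0.04 and 0.39 in control arrays. At 96 h they were 0.41, 0.31 and 0.44 in HgCl2 arrays, against -0.03, 0.40 and -0.001 in control arrays. In terms of the fitted difference per gene, the medians at 8, 24, 48 and 96 h were -0.12, 1.04, 0.52 and 0.68 for the core, -0.04, 0.43, 0.63 and 0.44 for the cap and 0.06, 0.11, 0.14 and 0.10 for the ubiquitin system, beside 0.01, 0.00, 0.01 and 0.01 over all probes. These medians describe the groups and were not tested, since the genes were picked with earlier results known.

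**Figure D1:**
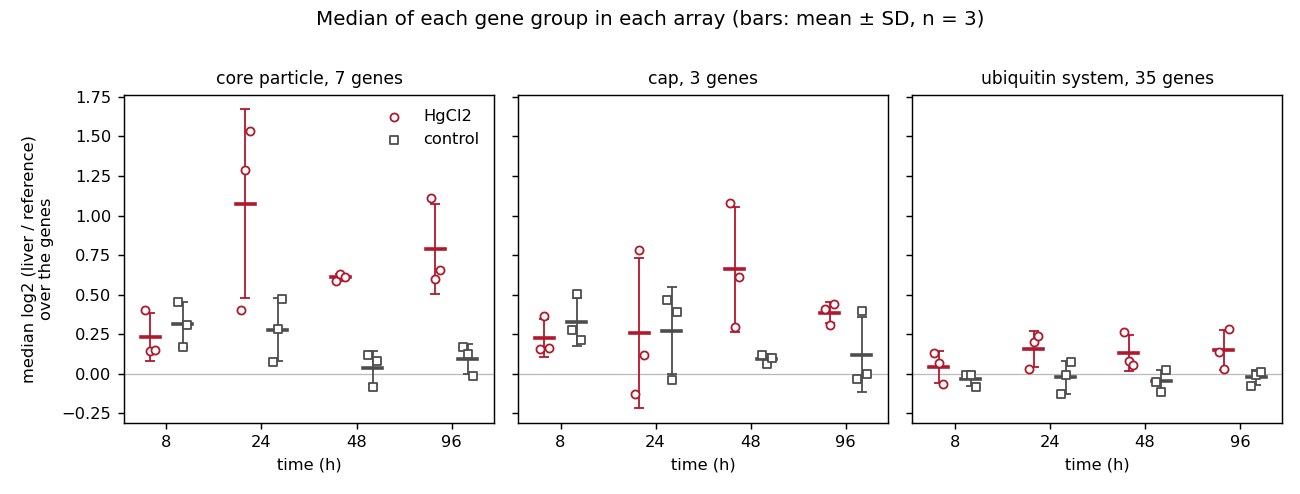
Median log2 ratio of liver over reference over the genes of each group (y axis) against time in hours (x axis), for HgCl2 (red circles) and control (grey squares). Each point is 1 array, bars are mean ± SD (n = 3). The core particle medians of HgCl2 arrays lie above all controls at 48 and 96 h, with values of 0.59 to 1.11. Those of the ubiquitin system also lie above all controls at these times but reach no more than 0.28.

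Averaged over the 4 times, 19 of the 46 genes were higher and 2 were lower, which is 41.3% and 4.35%, beside 17.7% higher and 13.8% lower among all probes. Of the core particle 6 of 7 were higher, of the cap 1 of 3, of the E2 enzymes 7 of 13 with 1 lower, and of the deubiquitinases 2 of 18 with 1 lower. At single times fewer passed: 0 at 8 h, 4 at 24 h and 5 at 48 h, all higher, and 7 at 96 h, of which usp10 alone was lower. Of all probes, 24 h exposure gave 6.61% higher and 4.23% lower. The 48 h livers gave 5.29% higher with 3.37% lower, and for those of 96 h the shares were 7.48% higher with 5.42% lower. At 8 h, where 0.624% of all probes were called higher and 0.349% lower, 5 of the 46 (10.9%, beside 12.8% of all probes) had an unadjusted p under 0.05 in limma, and the separate per-probe test named in the methods gave 6 before adjustment (13.0%, beside 9.89%) and 0 after it. In all, 33 genes were called at no single time, 11 at 1 time, ube2d2l at 2 and ube2v2 at 3. How many of all probes were called at 1 or more times was not counted, so whether these numbers are unusual was not tested.

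Without the HgCl2 24 h replicate 1 array, the number higher at 24 h was 12 in place of 4, of which 6 belonged to the core, and that fit called 8.53% of all probes higher in place of 6.61%. The arrays were clustered by their reference-channel signals, and the clustering was cut into 4 sets, a number that was chosen and not tested. No set was shared by HgCl2 and control arrays, so set and treatment cannot be told apart. Replicate 1 of HgCl2 24 h shared its set with the HgCl2 8 h arrays, and replicates 2 and 3 fell in another. With the set as a random block, added after seeing the data, 10 genes stayed higher and 1 lower in the average, beside 9.34% and 5.8% of all probes, and 3 of the 10 were core subunits.

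**Figure D2:**
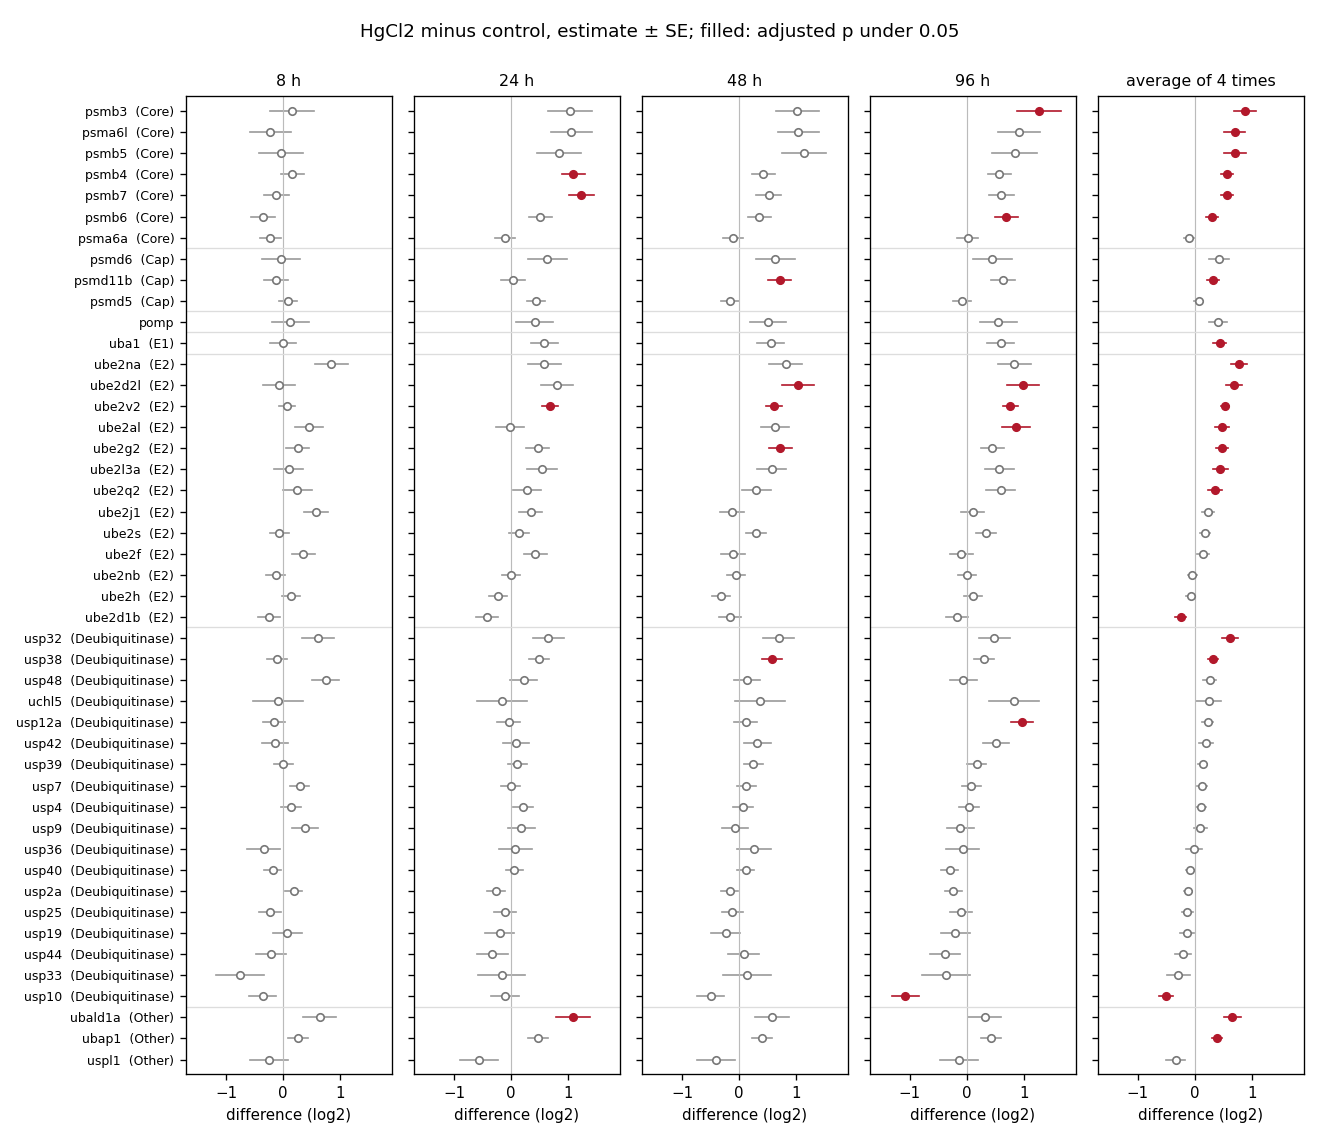
Fitted difference, HgCl2 minus control, in log2 units (x axis, ± SE) for each of the 46 genes (rows, by class) at each time and averaged over the 4 times. Filled red symbols have an adjusted p under 0.05; 19 are filled on the positive side of the average and 2 (ube2d1b and usp10) on the negative side.

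Among the beta subunits, psmb4 and psmb7 made the clearest rise at 24 h. For psmb4, a structural subunit of the beta ring, the log2 ratio was 0.38, 1.22 and 1.53 in HgCl2 livers at 24 h, against -0.14, -0.13 and 0.14 in control livers. All exposed pools were above all controls, and the difference of 1.09 ± 0.20 had an adjusted p of 0.0017. The same separation stood at 48 h, with 0.47, 0.42 and 0.50 in HgCl2 livers and 0.12, -0.08 and 0.08 in control livers, and at 96 h, with 0.63, 0.60 and 0.66 in HgCl2 livers and 0.13, -0.09 and 0.16 in control livers, although neither time passed (adjusted p = 0.20 and 0.072). At 8 h the pools overlapped, with 0.44, -0.03 and 0.13 in HgCl2 livers against 0.08, -0.02 and 0.00 in control livers. Over the 4 times psmb4 was higher by 0.56 ± 0.10 (adjusted p = 0.000271).

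The gene psmb7 encodes the subunit with trypsin-like activity. Its ratio at 24 h was 0.91, 1.62 and 1.89 in HgCl2 livers, against 0.08, 0.22 and 0.45 in control livers, a difference of 1.22 ± 0.22 (adjusted p = 0.0012). The exposed pools also lay above all controls at 48 h, with 0.59, 0.63 and 0.19 in HgCl2 livers against -0.04, -0.09 and -0.02 in control livers, and at 96 h, with 0.74, 0.45 and 0.46 in HgCl2 livers against -0.10, 0.07 and -0.10 in control livers. At 8 h the pools overlapped, with 0.63, 0.38 and 0.13 in HgCl2 livers against 0.86, 0.17 and 0.47 in control livers. The average difference was 0.55 ± 0.11 (adjusted p = 0.000567). Taken alone, the liver channel of psmb7 differed by 0.09 (adjusted p = 0.70) and the reference channel by -0.47 (adjusted p = 0.028).

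For psmb3, another structural beta subunit, the average difference was the largest of the core, 0.86 ± 0.19 (adjusted p = 0.00168). At 96 h the ratio was 1.11, 0.67 and 2.54 in HgCl2 livers, against 0.24, 0.35 and -0.02 in control livers. All 3 exposed pools were above all controls and replicate 3 stood far above the others, with a difference of 1.25 ± 0.38 (adjusted p = 0.0357). Without the HgCl2 96 h replicate 3 array that difference was 0.70 (adjusted p = 0.238), and the call was also lost without any 1 of the 3 controls (adjusted p = 0.0754 to 0.113). The pools also separated at 24 h, with 0.73, 2.21 and 1.53 in HgCl2 livers against 0.48, 0.29 and 0.60 in control livers, and at 48 h, with 2.15, 0.99 and 0.98 in HgCl2 livers against 0.51, 0.50 and 0.04 in control livers, but the differences of 1.04 and 1.02 did not pass (adjusted p = 0.0897 and 0.103). In the liver channel alone the average difference of psmb3 was 0.70 (adjusted p = 0.0093).

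The catalytic subunits psmb5, with chymotrypsin-like activity, and psmb6, with caspase-like activity, were called in the average. The ratio of psmb5 at 24 h was 0.36, 1.08 and 2.23 in HgCl2 livers against 0.02, 0.67 and 0.47 in control livers, which overlapped. At 48 h it was 1.38, 0.52 and 1.30 in HgCl2 livers against -0.26, -0.08 and 0.14 in control livers, with no overlap and a difference of 1.14 ± 0.39 that missed the threshold (adjusted p = 0.0707). The 4-time average was 0.69 ± 0.19 (adjusted p = 0.00942), and the probe was above background on 11 of 24 arrays in the reference channel. With the reference set as a random block the average difference of psmb5 was 0.65 (adjusted p = 0.0956).

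At 8 h psmb6 had 0.41, 0.14 and 0.23 in HgCl2 livers against 0.76, 0.57 and 0.52 in control livers, which did not overlap but gave a difference of -0.35 ± 0.20 that did not pass (adjusted p = 0.49). At 48 h all exposed pools were above the controls, with 0.64, 0.89 and 0.61 in HgCl2 livers and 0.23, 0.41 and 0.44 in control livers. At 96 h they were so again, with 1.50, 1.05 and 0.81 in HgCl2 livers and 0.44, 0.48 and 0.39 in control livers, and the difference of 0.68 ± 0.20 passed (adjusted p = 0.0289), though not without HgCl2 96 h replicate 1 or any 1 of the 3 controls (adjusted p up to 0.136). The effect at 96 h minus that at 8 h was 1.04 ± 0.28, with an unadjusted p of 0.0015 and an adjusted p of 0.078. The average of psmb6 over the 4 times was 0.30 ± 0.10 (adjusted p = 0.0281). That call was lost with either a random block for the reference set (adjusted p = 0.179) or the liver channel alone (0.19, adjusted p = 0.40). It was also lost without background correction and on leaving out any of 5 of the 24 arrays (adjusted p up to 0.0552).

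The alpha ring was represented by psma6a and psma6l, 2 genes named for the same subunit, which behaved differently. For psma6a the ratio at 96 h was 0.63, 0.51 and 0.72 in HgCl2 livers and 0.67, 0.78 and 0.38 in control livers, and at 24 h it was 0.40, 0.03 and 0.64 in HgCl2 livers and 0.46, 0.37 and 0.57 in control livers. The pools overlapped at all 4 times and the average difference was -0.11 ± 0.09 (adjusted p = 0.40). The gene psma6l had 0.19, 1.14 and 0.72 in HgCl2 livers at 48 h against -0.27, -0.41 and -0.38 in control livers, and 1.66, 0.37 and 0.36 in HgCl2 livers at 96 h against -0.42, 0.13 and -0.03 in control livers. Both times separated without passing singly (adjusted p = 0.0801 and 0.105), and the average was 0.69 ± 0.18 (adjusted p = 0.00606), a call of psma6l lost with the reference set as a random block (0.66, adjusted p = 0.0698). The difference between psma6a and psma6l was not tested, and the psma6l probe was above background on 21 of 24 liver arrays but on 6 of 24 reference arrays.

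**Figure D3:**
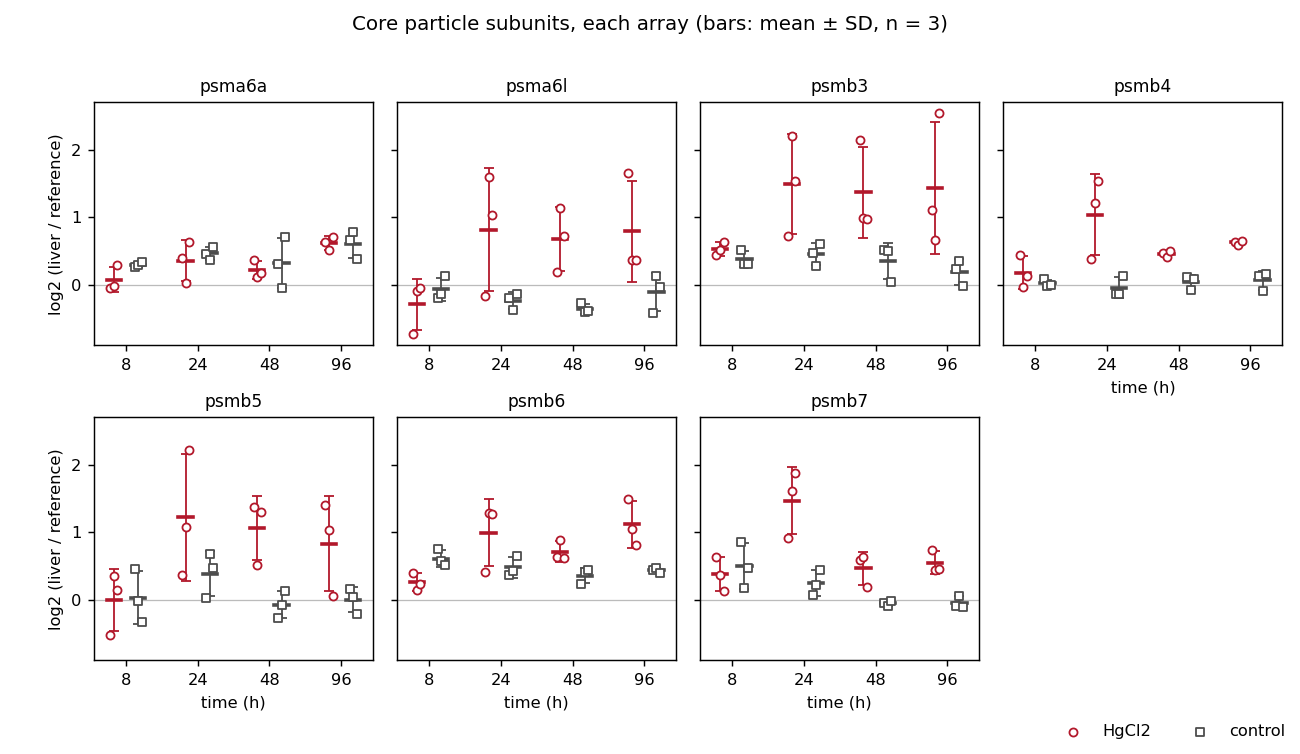
Log2 ratio of liver over reference (y axis) of the 7 core particle genes against time in hours (x axis) in HgCl2 (red circles) and control (grey squares). Points are arrays and bars are mean ± SD (n = 3). Exposed pools stand above all controls at 24, 48 and 96 h for psmb3, psmb4 and psmb7, and overlap with them at every time for psma6a.

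One array stood low across much of the set. In the HgCl2 24 h group replicate 1 had the lowest ratio of the 3 pools for 6 of the 7 core genes (all but psma6a), for 2 of 3 cap genes and for 20 of the 35 ubiquitin genes. Without it, 6 of 7 core genes passed at 24 h in place of 2, and the median core difference was 1.42 in place of 1.04. This array was in a different reference set from replicates 2 and 3, so leaving it out also changes which sets are compared. Its median liver background was 155, against 54 and 67 for replicates 2 and 3. In the liver channel 74.5% of its spots stood above background, against 91.5% and 91.9%. The part of these differences in the low ratios of replicate 1 was not tested. How often replicate 1 was lowest over all probes was not counted, so whether this is particular to these genes was not tested.

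Of the cap, psmd6 and psmd11b belong to the lid, where psmd11 is a scaffold subunit, whereas psmd5 is known in mammals as a chaperone of cap assembly. The psmd11b ratio at 48 h was 1.16, 0.98 and 0.93 in HgCl2 livers, against 0.38, 0.22 and 0.34 in control livers. These pools did not overlap, and the difference was 0.71 ± 0.21 (adjusted p = 0.0399). At 96 h it was 1.06, 0.31 and 1.16 in HgCl2 livers against 0.15, 0.40 and 0.12 in control livers, with 1 exposed pool inside the control range (adjusted p = 0.0545). The 48 h call was lost on leaving out any 1 of its 6 arrays, where adjusted p reached 0.148. The second psmd11b probe differed by 0.32 at 48 h (adjusted p = 0.508) and by 0.25 in the average (adjusted p = 0.164), against an average of 0.31 ± 0.10 (adjusted p = 0.0278) for the brighter one. That average call of psmd11b was lost under 5 of 8 alternatives and on leaving out any of 6 arrays, and the liver channel alone gave -0.22 (adjusted p = 0.313).

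The psmd6 ratio at 48 h was 1.08, 0.29 and 0.61 in HgCl2 livers, against 0.12, -0.14 and 0.10 in control livers. At 24 h it was -0.15, 1.01 and 1.87 in HgCl2 livers, against 0.49, -0.04 and 0.39 in control livers, the widest spread of any cap gene. Its average of 0.42 ± 0.17 did not pass (adjusted p = 0.0645), yet the liver channel alone was higher by 0.94 (adjusted p = 5.6e-06) while the reference channel was higher by 0.52 (adjusted p = 0.053). For psmd5 the ratio at 24 h was -0.13, 0.25 and 0.07 in HgCl2 livers, against -0.27, -0.29 and -0.53 in control livers, separate pools with a difference of 0.43 ± 0.16 (adjusted p = 0.0866), and the average was 0.06 ± 0.08 (adjusted p = 0.586). The liver channel of psmd5 differed by -0.38 (adjusted p = 0.0074), and the reference channel by -0.45 (adjusted p = 0.021).

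The maturation factor pomp, which helps new core particles to assemble, had 0.45, 0.26 and 0.35 in HgCl2 livers at 48 h and -0.27, 0.00 and -0.19 in control livers. These pools did not overlap, while at 96 h they did, with 1.29, 1.07 and -0.51 in HgCl2 livers and 0.02, -0.26 and 0.44 in control livers. Its average difference of 0.40 ± 0.16 did not pass (adjusted p = 0.0649).

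Uba1, the E1 that starts ubiquitin conjugation, was higher in the average by 0.43 ± 0.12 (adjusted p = 0.00759) and at no single time. Its ratio was 0.33, 0.36 and 1.00 in HgCl2 livers at 24 h against -0.19, -0.15 and 0.28 in control livers. It was 1.13, 0.09 and 0.32 in HgCl2 livers at 48 h against 0.01, 0.03 and -0.15 in control livers, and 0.82, 0.27 and 0.53 in HgCl2 livers at 96 h against 0.10, -0.05 and -0.20 in control livers. Exposed pools were above all controls at each of these times. The liver channel alone gave 0.48 (adjusted p = 0.011), while with the reference set as a random block the call of uba1 was lost (0.43, adjusted p = 0.0734).

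Among the E2 enzymes, ube2v2 was the member called most often. It is a catalytically inactive E2-like protein that pairs with ube2n to build ubiquitin chains used in signalling and DNA repair. Its ratio was 0.43, 0.24 and 0.56 in HgCl2 livers at 24 h, against -0.32, -0.12 and -0.36 in control livers. It was 0.26, 0.45 and 0.26 in HgCl2 livers at 48 h, against -0.30, -0.27 and -0.28 in control livers, and 0.70, 0.48 and 0.59 in HgCl2 livers at 96 h, against -0.29, -0.22 and 0.00 in control livers. At none of these times did the pools overlap, and the differences of 0.68 ± 0.14, 0.61 ± 0.14 and 0.76 ± 0.14 had adjusted p of 0.00295, 0.00839 and 0.000964. At 8 h they overlapped, with 0.30, 0.00 and -0.02 in HgCl2 livers and 0.02, 0.06 and 0.00 in control livers. The calls of ube2v2 held on leaving out each array. They also held with the reference set as a random block, a fit that cannot part set from treatment because no set holds both. The 24 h call was lost with the authors' value table, the 24 and 48 h calls with the 6 arrays of that time alone, and the liver channel alone gave an average of -0.10 (adjusted p = 0.65) and the reference channel -0.63 (adjusted p = 0.011).

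The partner of ube2v2 is present as ube2na and ube2nb, 2 genes of the same E2. In ube2na the ratio was 0.42, 0.83 and 0.63 in HgCl2 livers at 24 h against -0.43, 0.25 and 0.32 in control livers, and 0.73, 0.61 and 0.64 in HgCl2 livers at 48 h against -0.09, -0.18 and -0.19 in control livers. At 96 h it was 0.90, 0.09 and 0.96 in HgCl2 livers against -0.45, -0.07 and 0.01 in control livers. The pools did not overlap from 24 h on, no single time passed (adjusted p = 0.0651 at the lowest), and the average was 0.76 ± 0.14 (adjusted p = 0.000412). In ube2nb the ratio at 48 h was 0.03, -0.02 and -0.04 in HgCl2 livers and 0.01, -0.04 and 0.18 in control livers, and the average difference was -0.05 ± 0.08 (adjusted p = 0.664). The difference between ube2na and ube2nb was not tested, and the ube2na probe was above background on 17 of 24 liver arrays, against 24 of 24 for ube2nb. In the liver channel alone ube2na differed by 0.31 (adjusted p = 0.19), and its average call was also lost with the authors' value table. At 8 h its pools overlapped, with a ratio difference of 0.84, and the HgCl2 8 h group had its highest mean. There the liver channel differed by -1.02 (adjusted p = 0.053) and the reference channel by -1.86 (adjusted p = 0.011).

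For ube2d2l, named for its likeness to the broadly acting E2 ube2d2, the rise at 48 and 96 h was in the liver channel itself. Its ratio was 1.06, 0.24 and 0.67 in HgCl2 livers at 48 h, against -0.35, -0.60 and -0.15 in control livers, and 0.19, 0.77 and 0.98 in HgCl2 livers at 96 h, against -0.08, -0.48 and -0.44 in control livers. The pools did not overlap, and the differences of 1.02 ± 0.28 and 0.98 ± 0.28 passed (adjusted p = 0.0258 and 0.0231). In the liver channel alone they were 1.50 (adjusted p = 0.0034) and 1.29 (adjusted p = 0.0022), beside 0.48 (adjusted p = 0.49) and 0.31 (adjusted p = 0.53) in the reference channel. At 24 h the ratio was 0.25, 0.45 and 1.03 in HgCl2 livers, against -0.09, -0.06 and -0.55 in control livers, which separated without passing (adjusted p = 0.0659). There the liver channel differed by 0.42 (adjusted p = 0.45) and the reference channel by -0.39 (adjusted p = 0.76). The average was 0.69 ± 0.14 (adjusted p = 0.000734). Each of the 48 and 96 h calls was lost on leaving out any of 4 of its 6 arrays, with adjusted p up to 0.14 and 0.113. Both calls were also lost with the authors' value table and with the reference set as a random block. That of 48 h was lost without background correction as well.

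Ube2g2, an E2 of endoplasmic reticulum quality control, rose at 48 h, with 0.31, 0.74 and 0.08 in HgCl2 livers and -0.33, -0.37 and -0.32 in control livers. The pools were separate and the difference was 0.72 ± 0.20 (adjusted p = 0.0288), with an average of 0.47 ± 0.10 (adjusted p = 0.00111). Ube2al rose at 96 h, with -0.22, 0.58 and 0.44 in HgCl2 livers and -0.88, -0.36 and -0.52 in control livers, a difference of 0.85 ± 0.24 (adjusted p = 0.0254), and its average of 0.48 ± 0.12 (adjusted p = 0.00509) was lost with the reference set as a random block (adjusted p = 0.0617). Its pools also separated at 8 h and at 48 h but not at 24 h, when the difference was -0.02 ± 0.24. Leaving out any of 5 of its 6 arrays ended the 48 h call of ube2g2, and any of 4 ended the 96 h call of ube2al, with adjusted p up to 0.129 and 0.111.

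Ube2l3a, which serves ligases that take ubiquitin onto themselves first, and ube2q2 were higher in the average alone, by 0.44 ± 0.13 (adjusted p = 0.0117) and 0.35 ± 0.13 (adjusted p = 0.0364). The ube2l3a ratio at 48 h was 0.78, 0.83 and 0.40 in HgCl2 livers, against 0.18, -0.11 and 0.23 in control livers, with no overlap. The call of ube2q2 was lost on leaving out any of 12 of the 24 arrays (adjusted p up to 0.0741). With the reference set as a random block neither passed (adjusted p = 0.107 for ube2l3a and 0.189 for ube2q2), and in the liver channel alone ube2l3a differed by 0.28 (adjusted p = 0.093).

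The 1 E2 called lower was ube2d1b, by -0.25 ± 0.10 in the average (adjusted p = 0.0475). Its ratio at 24 h was -0.46, -0.43 and -0.26 in HgCl2 livers, against -0.13, 0.41 and -0.16 in control livers, all exposed pools below all controls, while at the other times the pools overlapped. That call was lost on leaving out any of 17 of the 24 arrays, with adjusted p up to 0.0947, and the liver channel alone ran the other way, at 0.30 (adjusted p = 0.16). Another 5 E2 genes were not called in any comparison of the ratio: ube2f, ube2h, ube2j1, ube2nb and ube2s, with average differences of -0.08 to 0.22. In the liver channel alone ube2f and ube2h were lower at 96 h, by -1.06 and -0.74 (adjusted p = 0.0089 and 0.036). There ube2nb was lower at 8 h, by -0.70 (adjusted p = 0.021). Ube2f carries NEDD8 in place of ubiquitin and ube2s extends chains for the anaphase-promoting complex.

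Of the 18 deubiquitinases 3 were called in the average. Usp10, known in mammals to deubiquitinate p53 and to bind stress granule proteins, had -0.42, -0.22 and -0.76 in HgCl2 livers at 96 h, against 0.76, 0.70 and 0.39 in control livers. The pools were far apart and the difference was -1.08 ± 0.24 (adjusted p = 0.00499). At 8 h the ratio was -1.07, -0.34 and -0.24 in HgCl2 livers and -0.11, -0.25 and -0.20 in control livers, so that the 96 h controls stood above those of 8 h. The average was -0.51 ± 0.12 (adjusted p = 0.00259). The second usp10 probe gave 0.21 at 96 h (adjusted p = 0.494) and 0.20 in the average (adjusted p = 0.10), so the 2 probes disagreed in sign. In the first probe's separate channels at 96 h, the liver channel differed by -0.22 (adjusted p = 0.68) and the reference channel by 0.86 (adjusted p = 0.11).

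Usp12a, which acts on histones with a WD-repeat partner, had 1.18, 0.88 and 1.30 in HgCl2 livers at 96 h, against 0.32, 0.07 and 0.08 in control livers, and a difference of 0.96 ± 0.20 (adjusted p = 0.00276). At 24 h it had 0.15, 0.86 and 0.86 in HgCl2 livers and 0.54, 0.81 and 0.64 in control livers, and the 96 h controls had the lowest mean of its 8 groups. The liver channel at 96 h differed by -0.38 (adjusted p = 0.43) and the reference channel by -1.34 (adjusted p = 0.008), so the higher ratio stood beside a lower reference signal in the HgCl2 arrays. Of all 46 genes usp12a came closest to a changed effect between times, with 1.12 ± 0.28 for 96 h minus 8 h (adjusted p = 0.054).

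Usp32 and usp38 were higher in the average, by 0.61 ± 0.14 (adjusted p = 0.00187) and 0.31 ± 0.09 (adjusted p = 0.00882), and their exposed pools were above all controls at 24, 48 and 96 h. For usp32 the 48 h values were 0.34, 0.18 and 0.19 in HgCl2 livers, against -1.21, -0.30 and 0.15 in control livers. Its probe was above background on 17 of 24 liver and 6 of 24 reference arrays, and the liver channel alone differed by 0.12 (adjusted p = 0.42) against -0.49 (adjusted p = 0.039) in the reference channel. For usp38 the 48 h values were 0.25, 0.20 and -0.05 in HgCl2 livers, against -0.55, -0.68 and -0.13 in control livers (difference 0.58 ± 0.17, adjusted p = 0.0425). That 48 h call of usp38 was lost under 9 of the other settings tried, among them the authors' value table and any fit with a block. The average call of usp38 was lost with the authors' value table and with the reference set as a random block (adjusted p = 0.0924 with the block). It was also lost in the liver channel alone (0.15, adjusted p = 0.46).

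The other 14 deubiquitinases were called in no comparison of the ratio, and their average differences ran from -0.29 to 0.26. They include usp7, a regulator of p53 stability, at 0.12 ± 0.08 (adjusted p = 0.294), and uchl5, which sits on the proteasome cap, at 0.23 ± 0.22 (adjusted p = 0.446). The uchl5 ratio at 96 h was -0.02, 0.05 and 0.96 in HgCl2 livers and -1.83, -0.54 and 0.90 in control livers, whose range was the wider. In the liver channel alone uchl5, usp25 and usp42 were higher in the average, by 0.61, 0.28 and 0.54 (adjusted p = 0.018, 0.028 and 0.00072). There usp19 and usp33 were lower, by -0.58 and -0.56 (adjusted p = 0.0022 and 0.025). That channel called 31.9% of all probes in the average.

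**Figure D4:**
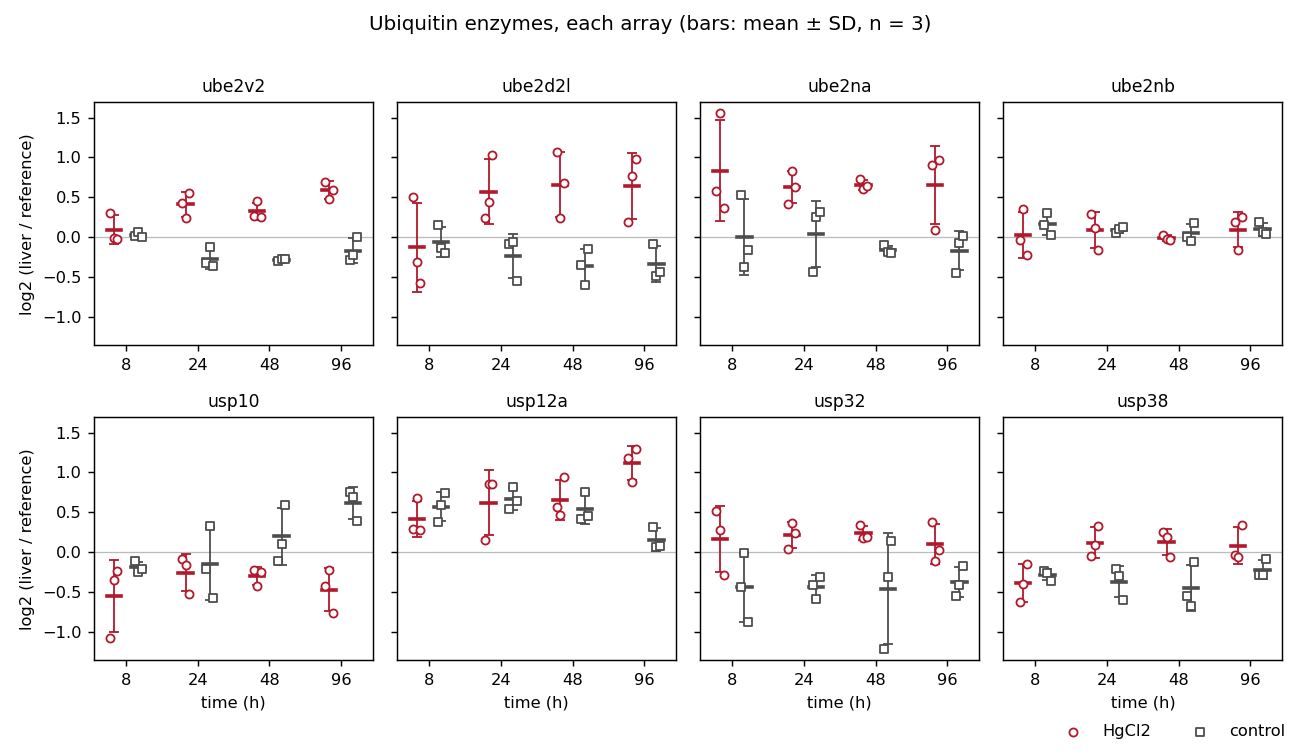
Log2 ratio of liver over reference (y axis) of 4 E2 genes and 4 deubiquitinases against time in hours (x axis) in HgCl2 (red circles) and control (grey squares), with mean ± SD (n = 3). Exposed and control pools of ube2v2 and ube2d2l separate from 24 h on while those of ube2nb overlap at every time. The separation of usp10 and usp12a at 96 h lies beside a shift of the 96 h controls, at 0.39 to 0.76 for usp10 and 0.07 to 0.32 for usp12a.

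Of the 3 genes that carry only the prefix, ubald1a had 0.21, 0.71 and 1.46 in HgCl2 livers at 24 h, against -0.20, -0.31 and -0.34 in control livers. The pools were separate, the difference was 1.08 ± 0.29 (adjusted p = 0.0214), and the average was 0.65 ± 0.15 (adjusted p = 0.002). Leaving out any of 4 of the 6 arrays at 24 h ended that call of ubald1a (adjusted p up to 0.137). Ubap1, a subunit of a complex that sorts ubiquitinated membrane proteins, was higher in the average by 0.38 ± 0.09 (adjusted p = 0.00231). That call of ubap1 was lost with plain background subtraction, with the liver channel alone and with the authors' value table. Uspl1, a SUMO protease in human cells, had an average of -0.34 ± 0.17 (adjusted p = 0.13). In the liver channel alone uspl1 was lower in the average, by -0.79 (adjusted p = 9.97e-05), where that channel called 31.9% of all probes. It was also lower there at 8 and 96 h, by -1.02 and -0.76 (adjusted p = 0.015 and 0.043).

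Counted by pools, all 3 exposed arrays lay above all 3 controls for 5 of 46 genes at 8 h, 12 at 24 h, 19 at 48 h and 16 at 96 h. These are 10.9%, 26.1%, 41.3% and 34.8%, beside 9.44%, 14.7%, 15.9% and 19.4% of all probes. They lay below all controls for 1, 2, 1 and 3 genes, beside 8.49%, 13.1%, 13.8% and 17.1% of all probes. At 48 h the genes above were 6 of 7 core subunits, 2 of 3 cap subunits, pomp and 10 of 35 ubiquitin genes. The separation held at 24, 48 and 96 h for 10 genes: psmb3, psmb4, psmb7, uba1, ube2d2l, ube2g2, ube2na, ube2v2, usp32 and usp38. The share of all probes that separated at these times together was not counted, so whether 10 of 46 is unusual was not tested. With 3 arrays against 3 an exact permutation test of 1 gene cannot go below p = 0.10.

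No member changed its effect significantly between times. In limma 0 of 46 were called for 24 h minus 8 h, 48 h minus 8 h, 96 h minus 8 h and 96 h minus 24 h, where 8, 10, 9 and 4 had an unadjusted p under 0.05. These are 17.4%, 21.7%, 19.6% and 8.70%, beside 8.82%, 11.8%, 15.8% and 11.7% of all probes. After adjustment 0%, 0.0734%, 0.459% and 0.0734% were called higher and 0%, 0.0184%, 0.532% and 0.0306% lower among all probes. The difference was positive for all 7 core genes in the first 3 of these contrasts, and the largest was psmb7 at 1.34 ± 0.31 for 24 h minus 8 h (unadjusted p = 0.00027, adjusted p = 0.27). The liver channel alone called 14 of the 46 for 96 h minus 8 h (30.4%, beside 24.6% of all probes), and the ratio none. It called 1 of 46 for 48 h minus 8 h and 1 for 96 h minus 24 h, beside 5.13% and 6.05% of all probes.

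An F test over the 8 groups called 15 of the 46 genes (32.6%, beside 18.6% of all probes). They were 6 of 7 core genes, 0 of 3 cap genes, 5 of 13 E2 genes, 3 of 18 deubiquitinases and ubald1a. With the reference set as a random block 2 of 46 passed (4.35%, beside 5.2%).

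The list of other genes of the pathway, also chosen with earlier results known, shows what stood beside these enzymes in the average. Of 4 genes of proteasome activators measured 3 were higher, of 4 immunoproteasome genes 2, of 3 assembly chaperones 0, of 4 receptors and shuttles 3, of 13 ubiquitin ligases 5, and of 5 further deubiquitinases 0 with 2 lower. Of 4 genes of ubiquitin-like proteins 2 were higher and 1 was lower, while 0 of 2 regulators and the 1 segregase gene measured were called. Among all probes 17.7% were higher and 13.8% lower in the average, and whether these short lists differ from that was not tested. The activator subunits psme1 and psme2 differed by 1.51 ± 0.15 and 0.90 ± 0.12 and the immunoproteasome gene psmb8a by 1.00 ± 0.12. The SUMO protease gene senp1 was higher by 1.80 ± 0.14, the most of this list. The ligases syvn1, a partner of endoplasmic reticulum degradation, wwp2 and cul1a, a scaffold of cullin ligases, differed by 1.07 ± 0.15, 0.50 ± 0.08 and 0.55 ± 0.10, and the deubiquitinase josd1 by -0.53 ± 0.08.

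Each ratio is a difference of 2 channels, and the channels were also fitted apart. In the average 9 of the 21 called members were called the same way in the liver channel alone, and 18 had the same sign there. The exceptions were psmd11b, ube2d1b and ube2v2. The liver channel alone called 31.9% of all probes and the reference channel alone 16.8%, although the labels describe the same reference pool for every array. Of the 46 members 9 were called in the reference channel, and 4 of these (psmb7, ube2d1b, ube2v2 and usp32) were among the 21. The members called in both the ratio and the liver channel were psma6l, psmb3, psmb4, psmb5, uba1, ubald1a, ube2d2l, ube2q2 and usp10.

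**Figure D5:**
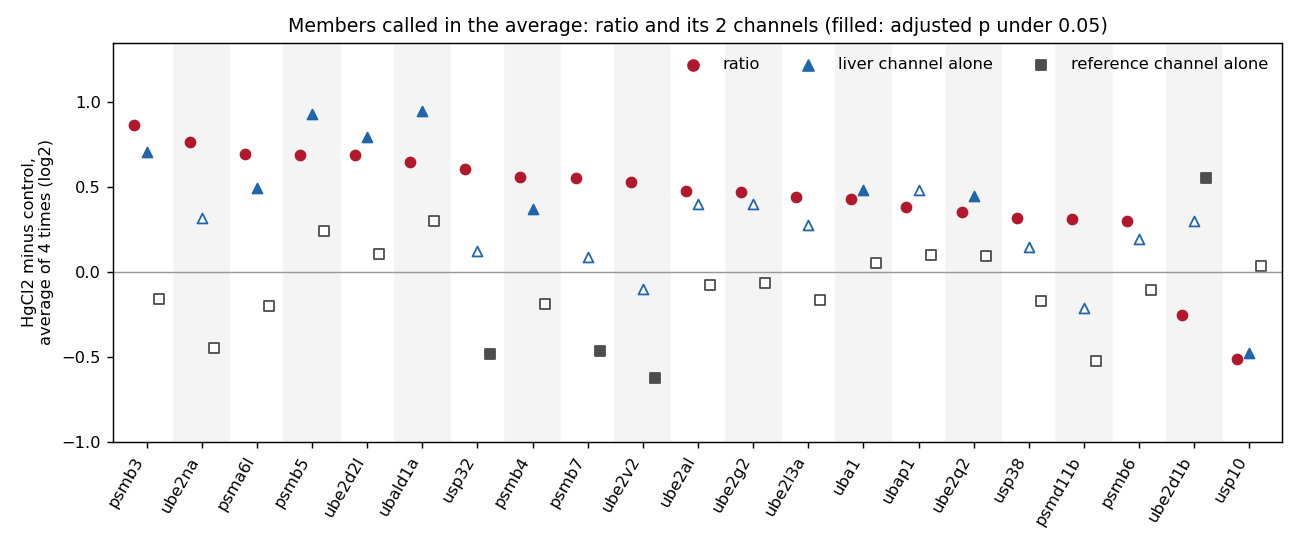
Average difference over 4 times, HgCl2 minus control (y axis, log2), for the 21 members called in the average (x axis), in the ratio (circles), the liver channel alone (triangles) and the reference channel alone (squares). Filled symbols have an adjusted p under 0.05. The liver channel is filled for 9 of the 21 in the direction of the ratio, and the reference channel for psmb7, ube2d1b, ube2v2 and usp32.

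Markers of cell types moved with exposure as well. In the average, 4 of 7 hepatocyte markers were higher (2 of the 4 that were not saturated on most arrays, since fabp10a, tfa and apoa1b were), 3 of 5 red blood cell markers lower, 4 of 4 exocrine pancreas markers lower, 4 of 10 leukocyte markers higher with 1 lower, and 4 of 4 ovary markers higher. Those of intestine (0 of 2) and of bile duct and endothelium (0 of 1) were not called. Of all probes 17.7% were higher and 13.8% lower. Of the 4 hepatocyte markers not saturated on most arrays, hpxb and cp were the 2 called, at 3.92 and 1.59. The others, rbp4 and fetub, ran the other way without passing, at -0.72 (adjusted p = 0.082) and -0.31 (adjusted p = 0.36). Per array the mean log2 ratio of the list was 0.10 to 0.69 in HgCl2 and -0.69 to -0.11 in control for hepatocyte (0.02 to 1.04 and -0.86 to -0.18 over the 4 not saturated on most arrays), -0.04 to 0.95 and -0.21 to 0.25 for leukocyte, and -1.50 to 3.49 and -2.23 to 0.33 for ovary, each pair given as HgCl2 and then control. For red blood cells it was -0.09 to 0.51 in HgCl2 and 0.23 to 1.27 in control, and for pancreas -1.74 to 0.36 in HgCl2 and -1.14 to 0.91 in control. The part of these markers in the values above was not tested, and in pooled liver fewer cells of a type and less RNA per cell cannot be told apart.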

How the data were processed

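Scanner files of 24 two-colour arrays, each with 16512 spots, were used. Per the file headers they hold spot intensity and local background intensity of each channel, as deposited by the authors and not yet normalized. In R 4.3.3 with limma 3.58.1, background was corrected by normexp with an offset of 50, the 172 control spots were left out, and each array was normalized by loess. A linear model of 8 groups over 16340 probes with 16 residual degrees of freedom gave HgCl2 minus control at each time, their average, changes between times and an F test, with Benjamini-Hochberg adjustment over all probes. The authors' deposited value table holds log2 ratios. The methods name Lowess normalization, yet on each array its values lay within 0.02 of the scanner ratio of background-subtracted means plus 1 constant, and it served as an alternative after median centring. Genes were named from the platform annotation, and members and gene lists were chosen with earlier results of these data known. Genes named were those called the same way at 2 or more times, the 3 with the highest and the 3 with the lowest moderated t of the average in each class, genes the paper names, genes whose probes disagreed, genes called at 1 time, and the 8 pathway genes of smallest p. The other genes described (psma6l, pomp, uba1, ube2l3a, ube2q2, usp7, usp32, uchl5 and ubap1) were chosen after their values were seen. Alternatives were other background corrections, centring, single channels, a filter on dim probes, blocks, the methods' t-test and leaving out each array. The number of arrays limits the precision. The fit was also run on simulated data, drawn with the spread of each probe in these arrays. That simulation held no reference sets.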

Additional observations from a re-analysis of the deposited data

Results flagged for a closer look

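One gene was flagged for the order of its arrays, without a test. At 8 h psmb6 differed by -0.35 between HgCl2 and control livers, with all 3 exposed arrays below all controls, whereas at 48 and 96 h all exposed arrays were above all controls. Of all probes 8.49% had all 3 exposed arrays below all controls at 8 h. How many of these were above all controls at a later time was not counted. For psmb6 the effect at 96 h minus that at 8 h was 1.04 ± 0.28 (limma, adjusted p = 0.078), and so did not pass.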

How the results depend on the processing

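Counts of members called depended on the channel used and on any block. With the liver channel alone, members higher numbered 1, 2, 3, 10 and 12 at 8, 24, 48 and 96 h and in the average. Members lower numbered 5 at 8 h, 5 at 96 h and 6 in the average. Of all 16340 probes that channel called 1427, 603, 634, 1860 and 2701 higher, in the same order. It called 1223, 1851 and 2507 lower at 8 h, at 96 h and in the average. It changed 1, 14 and 1 for 48 h minus 8 h, 96 h minus 8 h and 96 h minus 24 h, beside 839, 4027 and 988 of all probes. It called 23 members by the F test. Its medians were 0.76 and 0.14 for the core at 24 and 48 h, 0.28, -0.00059, 0.084 and -0.22 for the cap at 8, 24 and 48 h and in the average, and -0.072, 0.23 and 0.22 for the ubiquitin system at 8, 24 and 96 h. It turned the direction of psmd11b (-0.22), psmd5 (-0.38), ube2d1b (0.30) and ube2v2 (-0.10) in the average, of ube2v2 at 48 h (-0.21) and of usp12a at 96 h (-0.38). With the reference set as a random block, chosen after seeing the data, members higher were 1 at 48 h, 2 at 96 h and 10 in the average, 1 was lower in the average and 2 passed the F test. Of all probes 361, 591 and 1526 were higher, 947 were lower and 850 passed, in the same order. Replicate numbers did not pair the arrays, and with the replicate block 3 members were higher at 48 h and 1 lower in the average, beside 792 and 2133 of all probes. Without background correction 2 were higher at 48 h (beside 747 of all probes), 9 passed the F test and the core median at 24 h was 0.62. Plain subtraction gave 1 higher at 8 h (beside 234 of 15471 probes), 3 at 48 h (beside 578 of 16265) and a ubiquitin median of 0.25 at 48 h. The authors' value table gave 1 higher at 8 h, 1 at 48 h and 1 lower in the average, beside 200, 447 and 1937 of all probes, and 7 by the F test. Leaving out dim probes gave 1 change for 96 h minus 8 h, and fitting 24 h on its 6 arrays gave 1 higher, beside 670 of all probes. The methods' t-test at an unadjusted p under 0.05 gave 5, 9, 14 and 10 members higher at 8, 24, 48 and 96 h. It gave 1, 1 and 3 lower at 8, 24 and 96 h. Of all 16340 probes it gave 844, 1672, 1667 and 2189 higher, and 772, 1413 and 1982 lower at 8, 24 and 96 h. After Benjamini-Hochberg it gave 0 members at 24, 48 and 96 h. Leaving out 1 array at a time gave 3 to 12 higher at 24 h, 1 to 4 at 48 h, 3 to 7 at 96 h, 17 to 22 higher and 1 to 2 lower in the average, 0 to 3 changes for 24 h minus 8 h and 0 to 1 for 96 h minus 8 h. The core median at 24 h was then 0.67 to 1.42 and the ubiquitin median 0.12 to 0.27 at 48 h and 0.085 to 0.22 at 96 h. The cause of these changes was not tested. Numbers over all probes were not counted for the F test under settings other than the main fit and the reference set block. Nor were they for changes between times without dim probes. For fits without 1 array they were counted only for higher calls at 24 h without HgCl2 24 h replicate 1. Faint reference signal limits the ratios of 9 members.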
